A study of Mus musculus with 6 samples.

Results

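Messenger RNA was measured in mouse liver for the 8 genes that shorten the side chain of bile acid intermediates in the peroxisome and join the finished bile acid to taurine or glycine. The genes are Slc27a5, Slc27a2, Amacr, Acox2, Hsd17b4, Scp2, Acot8 and Baat. They were chosen by name for their place in the pathway, out of 23284 genes in the count files, and all 8 were found and passed the filter on low counts.

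The livers came from male mice carrying floxed alleles of Nr1h4, the gene for the bile acid receptor FXR. At 8 weeks of age every mouse received AAV8-TBG-Cre, a virus that expresses Cre recombinase from the hepatocyte-specific TBG promoter, so endogenous FXR was to be deleted in hepatocytes of both groups and kept in other liver cells. The same injection carried a second AAV8-TBG virus with FXR, either wild type (FXR-WT, 3 livers) or with tyrosine 67 replaced by phenylalanine (Y67F-FXR, 3 livers), a form that cannot be phosphorylated at that residue. After 4 weeks all mice ate chow with 0.5% cholic acid for 6 h before the livers were taken. The comparison therefore asks how these mRNAs differ when hepatocytes fed a bile acid carry one or the other FXR, and no liver without FXR or without cholic acid was analysed here.

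Bile acids are made from cholesterol, and the last part of the route takes place in peroxisomes. Slc27a2 and Slc27a5 attach coenzyme A, Amacr turns the side chain into the isomer that the next enzyme accepts, and Acox2, Hsd17b4 and the thiolase encoded by Scp2 carry out one round of beta-oxidation that removes the end of the chain. Acot8 can release the acyl group from coenzyme A, and Baat transfers it to taurine, the main conjugate in mice, or to glycine. Bile acids that return from the intestine skip the shortening and need Slc27a5 and Baat alone to be conjugated again.

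Promoter sequence is shown for Acot8, the gene with the largest fitted difference between the groups, and for Scp2, the gene with the smallest, as examples. The 200 bases before the RefSeq transcript start are printed on the gene's strand in GRCm38.p6, at chr2:164804882-164805081 for Acot8 and chr4:108118548-108118747 for Scp2, both on the minus strand. Capitals mark the CCAAT box, the GC box (GGGCGG, read here on the other strand) and the nuclear receptor half-site AGGTCA.
Acot8: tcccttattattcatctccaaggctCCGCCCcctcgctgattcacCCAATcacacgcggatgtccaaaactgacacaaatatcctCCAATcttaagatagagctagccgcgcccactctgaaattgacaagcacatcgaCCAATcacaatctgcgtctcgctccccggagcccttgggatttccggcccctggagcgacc
Scp2: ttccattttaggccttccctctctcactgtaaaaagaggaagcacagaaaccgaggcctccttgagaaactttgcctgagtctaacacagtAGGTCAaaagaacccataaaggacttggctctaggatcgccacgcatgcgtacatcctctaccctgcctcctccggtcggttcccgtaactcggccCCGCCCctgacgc

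The Acot8 window held 3 CCAAT boxes, beginning 155, 115 and 61 bases before the start, and a GC box at 175 bases. The Scp2 window held 1 half-site at 109 bases and a GC box at 13 bases. Over 32851 windows of the same length, searched on both strands, 29.3% held a CCAAT box, 31.0% a GC box and 11.4% a half-site. These are matches of letters, and binding at them was not measured. Windows were available for 4 of the 8 genes.

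Among 12453 tested genes, the Y67F-FXR livers had 53 called lower and 68 called higher, a called share of 0.972%. A call needed a fitted fold change over 1.5 and, in the quasi-likelihood F test of edgeR, a p under 0.05 after adjustment over all tested genes by the method of Benjamini and Hochberg. Library totals ran from 19551113 to 22053320 reads, of which the 8 genes took from 0.471% to 0.648%. Nr1h4 itself had 152, 209 and 198 counts per 1000000 reads (CPM, scaled by TMM factors) in the FXR-WT livers and 169, 169 and 186 CPM in the Y67F-FXR livers, with a log2 fold change of -0.09 and an adjusted p of 0.861 (edgeR). These groups overlapped, and reads of the viral FXR transgene that align to the mouse gene would be counted with it. The paper's flag-tagged FXR is human, and the species of the FXR in the AAV8 virus is not stated. A human sequence may align to the mouse gene only in part, so these counts do not give the transgene level.

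None of the 8 genes was called, 0 of 8 beside 0.972% of all tested genes. By unadjusted p under 0.05, Acot8 and Hsd17b4 passed, both higher in Y67F-FXR livers, which is 2 of 8 beside 13.4% of all tested genes. DESeq2 also called 0 of 8, beside 3.46% of all tested genes, with 3 of 8 at an unadjusted p under 0.05, beside 13.2%, the third being Slc27a2. The fitted change was upward for 7 of the 8 genes, with a median log2 fold change of 0.27 against 0.01 over all tested genes. In CPM, 2 of 8 genes were higher in every Y67F-FXR liver than in any FXR-WT liver, against 10.2% of all tested genes, and 0 of 8 were lower in every one, against 10.5%. With 3 livers a group, the smallest two-sided p of an exact permutation test is 0.1, the value that Acot8 and Hsd17b4 had. In bulk liver RNA, a change in the share of a cell type and a change of RNA per cell cannot be told apart.

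The 8 transcripts lay at very different levels. Scaled per length, as transcripts per 1000000 (TPM), Slc27a2 and Scp2 stood highest, with 1174 ± 328 and 1095 ± 257 TPM (SD, n = 3) in FXR-WT livers. Slc27a5 followed at 549 ± 43.2 TPM, Hsd17b4 at 325 ± 68.3 TPM and Baat at 249 ± 14.4 TPM. The lower part of the order was Acox2 at 167 ± 4.06 TPM, Amacr at 111 ± 7.99 TPM and Acot8 at 30.4 ± 3.64 TPM. The order was the same in all 6 livers, of both groups. Neighbours were not all apart: Slc27a2 and Scp2 had 861 and 859.9 TPM in FXR-WT replicate 1, and the spread of Hsd17b4 reached that of Baat. Summed over the 8 genes, the level was 3078, 3681 and 4339 TPM in the FXR-WT livers and 4600, 3526 and 4097 TPM in the Y67F-FXR livers, so the groups overlapped. In TMM-scaled CPM the sum was 4702, 5238 and 5833 in the FXR-WT livers and 6350, 5884 and 6187 in the Y67F-FXR livers, and these did not overlap, so the reading depends on the scaling.

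**Figure D1:**
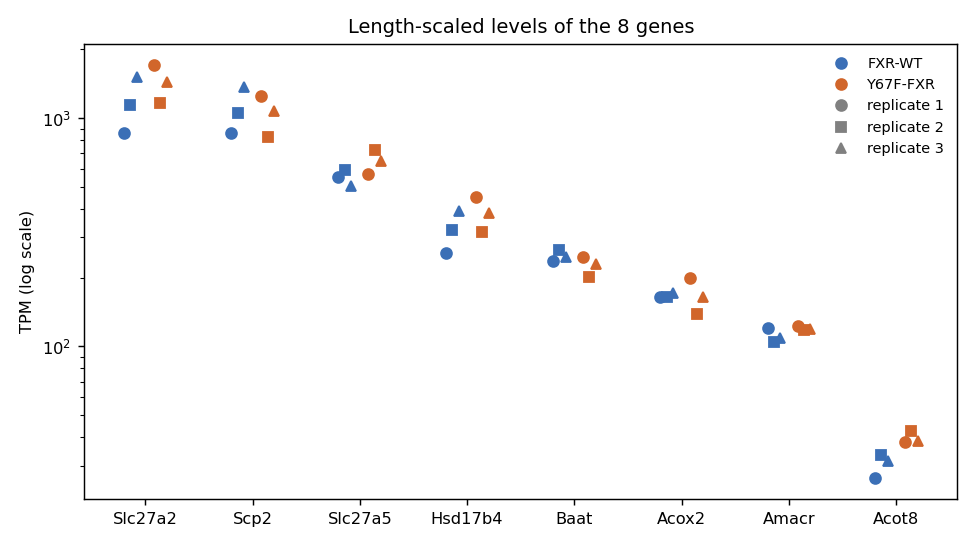
Level per length (TPM, log axis) of the 8 genes in each of the 6 livers, with colour for the group and marker shape for the replicate number. Slc27a2 and Scp2 lie near 1000 TPM, Acot8 lies between 26.4 and 42.7 TPM, and the order of the genes is the same in every liver.

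Slc27a2 (chromosome 2 of mm9, 126378760 to 126413979), a very long-chain acyl-CoA synthetase that activates newly made bile acid intermediates as well as fatty acids, had 1245, 1542 and 1918 CPM in the FXR-WT livers and 2238, 1848 and 2051 CPM in the Y67F-FXR livers. The groups overlapped by a narrow margin, the highest FXR-WT liver lying above the lowest Y67F-FXR liver. Its fitted fold change was 1.30 (95% interval 0.982 to 1.73, edgeR adjusted p = 0.408).

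Slc27a5 (chromosome 7 of mm9, 13573696 to 13583541), the bile acyl-CoA synthetase that reactivates returning bile acids, had 808, 805 and 645 CPM in the FXR-WT livers and 754, 1166 and 941 CPM in the Y67F-FXR livers. Y67F-FXR replicate 1 fell among the FXR-WT values, and replicates 2 and 3 lay above them. The fitted fold change was 1.27 (95% interval 0.945 to 1.70, edgeR adjusted p = 0.485).

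Amacr (chromosome 15 of mm9, 10911511 to 10926379), the racemase, had 194, 157 and 155 CPM against 180, 210 and 191 CPM. Only FXR-WT replicate 1 lay among the Y67F-FXR livers, and the fitted fold change was 1.15 (95% interval 0.925 to 1.43, edgeR adjusted p = 0.613). Acox2 (chromosome 14 of mm9, 9058025 to 9091533), the branched-chain oxidase that puts the double bond into the side chain, had 272, 253 and 248 CPM against 296, 253 and 269 CPM. These values were mixed between the groups, and the fitted fold change was 1.06 (95% interval 0.876 to 1.28, edgeR adjusted p = 0.850).

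Hsd17b4 (chromosome 18 of mm9, 50287855 to 50355924), the D-bifunctional protein that hydrates the double bond and oxidises the product, had 433, 509 and 580 CPM in the FXR-WT livers and 688, 588 and 642 CPM in the Y67F-FXR livers. The groups were apart, though only just, with 580 CPM as the highest FXR-WT and 588 CPM as the lowest Y67F-FXR value. Per length and without TMM factors they overlapped, since FXR-WT replicate 3 had 393 TPM and Y67F-FXR replicate 2 had 317 TPM. The fitted fold change was 1.26 (95% interval 1.00 to 1.59), and edgeR gave an unadjusted p of 0.0499975 and an adjusted p of 0.373. The unadjusted p was above 0.05 in 6 of 13 other fits, among them those without FXR-WT replicate 1 or 2 or without Y67F-FXR replicate 1 or 3.

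Scp2 (chromosome 4 of mm9, 107716435 to 107791152) encodes both the peroxisomal thiolase SCPx, which splits off the end of the side chain, and the shorter sterol carrier protein 2, and counts per gene do not separate their transcripts. It had 1440, 1647 and 2005 CPM in the FXR-WT livers and 1897, 1515 and 1787 CPM in the Y67F-FXR livers. The values of the groups were interleaved. Its fitted fold change was 1.02 (95% interval 0.788 to 1.32, edgeR adjusted p = 0.970), and the sign turned in 3 of 13 other fits.

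Acot8 (chromosome 2 of mm9, 164618268 to 164630381), the peroxisomal thioesterase, had 391, 466 and 459 reads in the FXR-WT livers and 510, 623 and 576 reads in the Y67F-FXR livers. In CPM these were 19.1, 22.6 and 19.8 against 24.8, 34.0 and 27.5, and every Y67F-FXR liver lay above every FXR-WT liver. The fitted fold change was 1.401 (95% interval 1.10 to 1.79), and edgeR gave an unadjusted p of 0.0129 and an adjusted p of 0.210. Its unadjusted p stayed under 0.05 in 13 of 13 other fits, and its adjusted p stayed above 0.05 in all of them. Acot8 shares 3 exon bases with Snx21 on the opposite strand, and reads were counted without strand. Snx21 had a log2 fold change of 0.28 and an adjusted p of 0.572 in the same fit.

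Baat (chromosome 4 of mm9, 49502290 to 49519430), which makes the conjugate with taurine or glycine, had 290, 302 and 262 CPM in the FXR-WT livers and 273, 269 and 278 CPM in the Y67F-FXR livers. All Y67F-FXR values lay inside the range of the FXR-WT values. The fitted fold change was 0.961 (95% interval 0.803 to 1.15, edgeR adjusted p = 0.896), so changes of the called size, over 1.5-fold in either direction, lay outside the interval. The same held for Amacr, Acox2 and Scp2, while the upper bounds for Slc27a2, Slc27a5, Hsd17b4 and Acot8 were above 1.5.

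**Figure D2:**
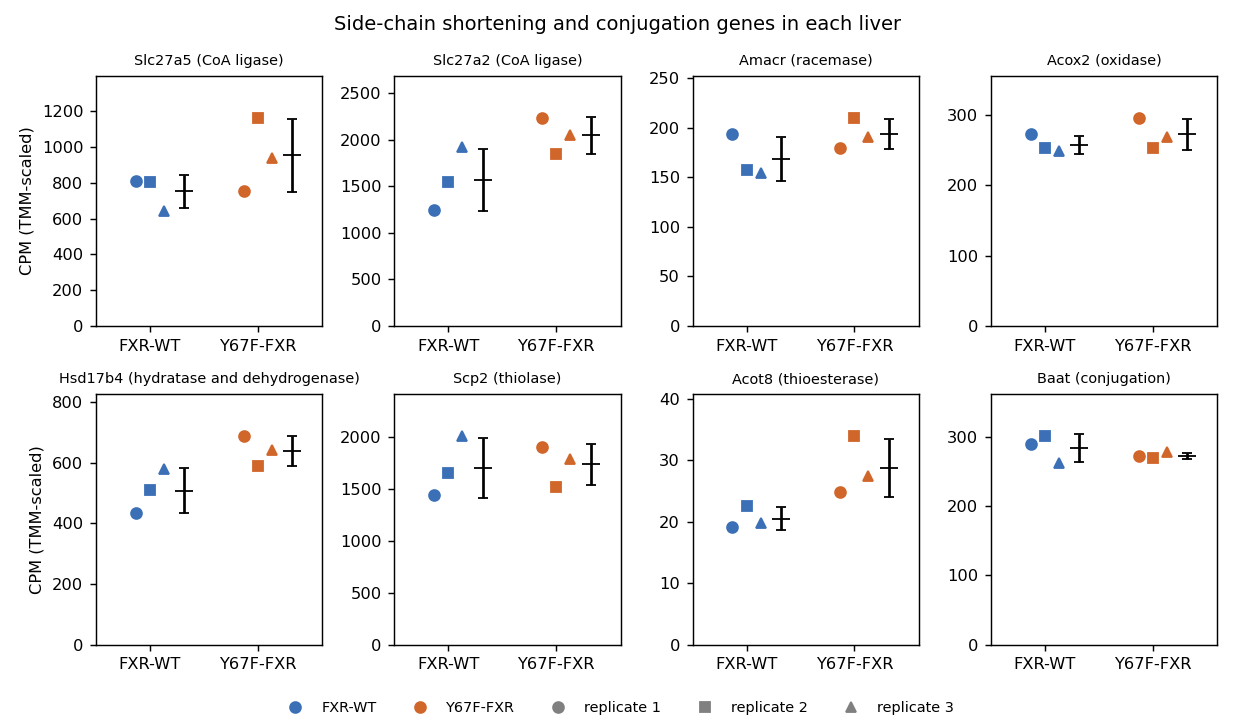
CPM (TMM-scaled, linear axes from 0) of each gene in the 3 FXR-WT and 3 Y67F-FXR livers, with the mean and SD of each group in black beside the points. Acot8 and Hsd17b4 are the genes whose groups do not overlap, and the Y67F-FXR values of Baat lie within its FXR-WT range.

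**Figure D3:**
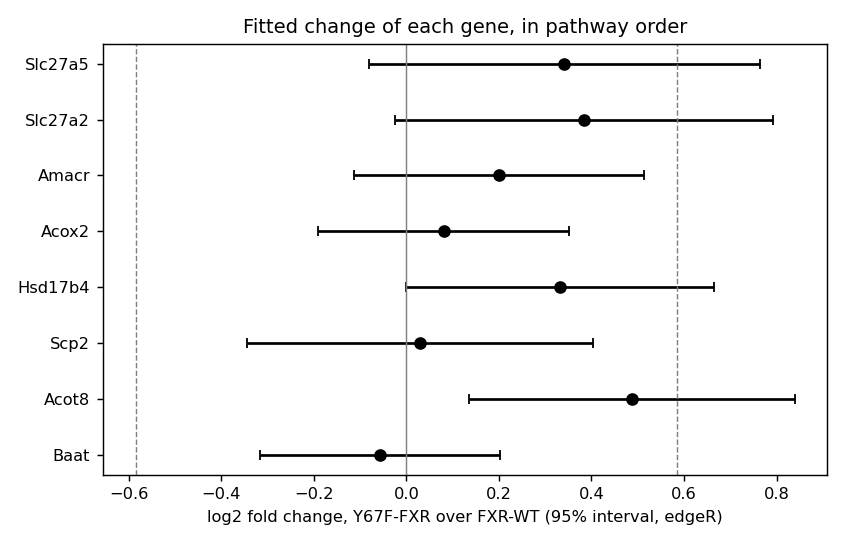
Fitted log2 fold change of Y67F-FXR over FXR-WT with its 95% interval from edgeR, for the 8 genes in pathway order, with dashed lines at 1.5-fold in either direction. The points lie from -0.06 for Baat to 0.49 for Acot8, the interval of Acot8 lies above 0, and that of Hsd17b4 begins at 0.

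The genes also differed in how steady they were among livers of 1 group. The coefficient of variation of CPM was 7.15% in FXR-WT and 1.65% in Y67F-FXR livers for Baat, and 4.95% and 8.11% for Acox2. It was 21.5% among FXR-WT livers for Slc27a2 and 21.6% among Y67F-FXR livers for Slc27a5. The median over the 8 genes was 12.7% in FXR-WT and 8.81% in Y67F-FXR livers, beside 14.8% and 16.0% over all tested genes.

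Slc27a2, Hsd17b4 and Scp2 shared an order of the livers within each group. All 3 genes were lowest in FXR-WT replicate 1 and highest in FXR-WT replicate 3, and lowest in Y67F-FXR replicate 2 and highest in Y67F-FXR replicate 1. Slc27a5 ran the other way at the ends of the order, with its highest value in replicate 1 of FXR-WT and replicate 2 of Y67F-FXR. The shortest 20% of genes moved between the same livers, with median log2 deviations from the mean of all 6 livers of 0.20, -0.02 and -0.18 in the FXR-WT and -0.20, 0.22 and -0.01 in the Y67F-FXR livers. The part of gene length in this order was not tested. With offsets for gene length the log2 fold change between the groups was 0.40 for Slc27a2, 0.34 for Hsd17b4 and 0.04 for Scp2. Without the offsets it was 0.38, 0.33 and 0.03. These values compare the groups, so they cannot show what length does to the order of livers inside a group.

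Ratios between genes of the same liver cancel what the genes share in a library. They were compared after the values above had been seen, for all 28 pairs of the 8 genes, which share members. The ratio of Slc27a2 to Scp2, in reads per length, was 1.00, 1.08 and 1.11 in the FXR-WT livers and 1.37, 1.41 and 1.33 in the Y67F-FXR livers. The ratio of Hsd17b4 to Scp2 was 0.298, 0.307 and 0.287 against 0.3599, 0.385 and 0.356. Both were higher in every Y67F-FXR liver, with small spread inside each group.

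Acot8 to Baat, the thioesterase to the conjugating enzyme, was 0.112, 0.127 and 0.128 in the FXR-WT livers and 0.154, 0.213 and 0.167 in the Y67F-FXR livers. These 3 pairs of 28 were the ones without overlap, beside 20.7% of all pairs of tested genes. Each had the smallest p of the exact permutation test, 0.1, before any correction over the 28 pairs. Slc27a2 to Hsd17b4 was steadier than either gene, at 3.36, 3.53 and 3.86 in the FXR-WT and 3.80, 3.67 and 3.73 in the Y67F-FXR livers, and the groups overlapped.

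**Figure D4:**
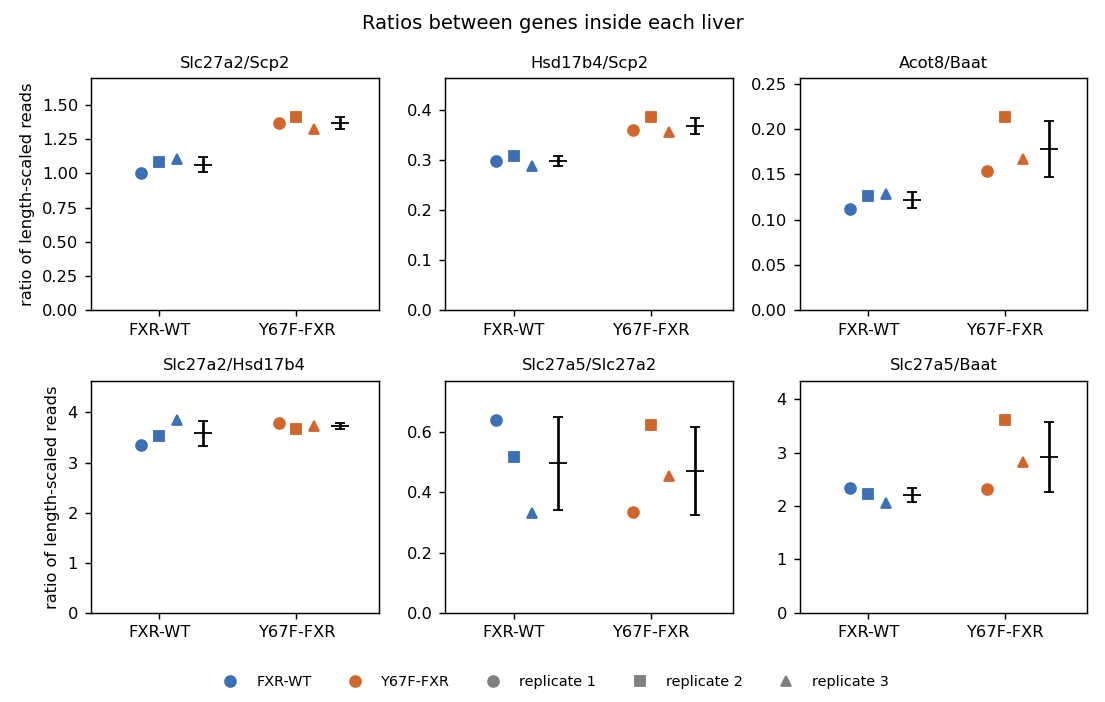
Ratio of length-scaled reads between genes of the same liver for 6 of the 28 pairs, each with the 3 livers of a group and their mean and SD in black. The upper row holds the 3 pairs whose groups do not overlap, and the lower row holds 3 pairs whose groups overlap, chosen as examples.

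Scp2 made up 27.9%, 28.7% and 31.6% of the summed TPM of the 8 genes in the FXR-WT livers and 27.3%, 23.3% and 26.3% in the Y67F-FXR livers. Every Y67F-FXR share was below every FXR-WT share. Counting both directions, Scp2 was the 1 gene of the 8 whose shares did not overlap between the groups, beside 28.8% of all tested genes set against the same sum, lower or higher. Slc27a2 made up 28.0%, 31.1% and 34.9% against 37.3%, 33.0% and 35.0%, and these overlapped. Acot8 stayed between 0.722% and 1.21% of the sum.

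Peroxisomal oxidation of fatty acids uses the same organelle and parallel enzymes. Of 18 genes listed for it, 14 were fitted higher and 4 lower. In each direction 1 was called, beside a called share of 0.972% of all tested genes. Their median log2 fold change was 0.22. Acaa1b, a thiolase for straight-chain substrates and so the counterpart of the Scp2 thiolase, rose from 1209 ± 25.1 to 2298 ± 117 CPM (SD, n = 3), which is 0.93 on the log2 scale, with an edgeR adjusted p of 0.0175. Its near-identical paralogue Acaa1a had a log2 fold change of 0.58 and an edgeR adjusted p of 0.202, and the way reads were divided between this pair is uncertain. Nudt7, a peroxisomal hydrolase of coenzyme A and its esters, fell from 565 ± 48.7 to 217 ± 33.3 CPM, a log2 fold change of -1.38 with an edgeR adjusted p of 0.0139. Without FXR-WT replicate 3 the call of Nudt7 was lost (adjusted p = 0.0614), as was that of Acaa1b (adjusted p = 0.1002), which was also lost without FXR-WT replicate 2 or Y67F-FXR replicate 1 or 3.

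Genes for building peroxisomes were not called, 0 of 18, beside 0.972% of all tested genes. In edgeR's test 4 had an unadjusted p under 0.05, all higher, beside 13.4% of all tested genes, 830 lower and 840 higher. The median log2 fold change of the list was 0.22, against 0.01 over all tested genes. The smallest unadjusted p-values belonged to Pex26, Pex3 and Pex19, which act in the import of matrix or membrane proteins. Their log2 fold changes were 0.39, 0.38 and 0.45, with edgeR adjusted p-values of 0.198, 0.210 and 0.223. DESeq2 called none of the 18 either, beside 3.46% of all tested genes.

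A further list held genes that supply the amino acids for conjugation. Of 9 tested out of 10, 4 were fitted higher and 5 lower, and the median log2 fold change was -0.01. By DESeq2 or by edgeR as described above 0 were called, beside 3.46% and 0.972% of all tested genes. In edgeR's test 1 had an unadjusted p under 0.05, beside 13.4% of all tested genes. That gene was Slc6a6, the taurine transporter, at 79.5 ± 10.4 CPM in FXR-WT and 52.6 ± 13.1 CPM in Y67F-FXR livers (SD, n = 3), with an adjusted p of 0.238 in edgeR's test, and it was called lower in the edgeR fit with length offsets (adjusted p = 0.0487). Csad and Cdo1, enzymes that make taurine from cysteine, had log2 fold changes of 0.41 and 0.26 with adjusted p-values of 0.418 and 0.578 in that test. Gadl1 was listed at 0 in all 6 livers.

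Relatives of the coenzyme A ligases and of the thioesterase held called genes, and whether these differ in their change from Slc27a2, Slc27a5 and Acot8 was not tested. Among 7 tested of 9 other acyl-CoA synthetases, Slc27a1, a fatty acid transporter and synthetase, rose from 19.6 ± 5.31 to 49.9 ± 1.71 CPM (SD, n = 3), or 1.35 on the log2 scale with an edgeR adjusted p of 0.0307. Slc27a4 and Acsl4 had log2 fold changes of 0.46 and -0.61 with adjusted p-values of 0.238 and 0.166 in that test. Acsl4 was called lower by DESeq2 (adjusted p = 0.0466) and in the edgeR fit with length offsets (adjusted p = 0.0465). Leaving out any liver but FXR-WT replicate 1 ended the call of Slc27a1, with adjusted p-values up to 0.136.

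Among 11 tested of 14 other thioesterases and relatives of Baat, 8 were fitted higher and 3 lower, and the median log2 fold change was 0.36. Acot1, a cytosolic thioesterase of fatty acyl-CoA, rose from 58.8 ± 7.28 to 155 ± 19.8 CPM (SD, n = 3), or 1.399 on the log2 scale with an edgeR adjusted p of 0.0139. Its near-identical mitochondrial paralogue Acot2 rose from 7.57 ± 1.56 to 18.0 ± 1.99 CPM, or 1.25 on the log2 scale with an edgeR adjusted p of 0.0307, and reads of the pair may be divided uncertainly. Acot3, a peroxisomal member of that family, was at 31.0 ± 19.2 and 131 ± 19.2 CPM with an adjusted p of 0.0909 in edgeR's test, and was called by DESeq2, without a filter, with length offsets and without FXR-WT replicate 1 (adjusted p = 0.0441). The call of Acot1 was lost without FXR-WT replicate 3 (adjusted p = 0.0614), and that of Acot2 was lost without any liver but FXR-WT replicate 1, with adjusted p-values up to 0.102.

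A list of 9 genes for the sterol ring and other earlier steps of the synthesis, called ring genes here, held 8 tested genes. Of these, 2 were called higher and 1 lower, beside a called share of 0.972% of all tested genes. Cyp27a1 and Ch25h of this list act on the side chain itself, and Ch25h was not tested. Cyp27a1 had 465 ± 104 CPM in FXR-WT and 869 ± 85.0 CPM in Y67F-FXR livers (SD, n = 3). Its log2 fold change was 0.90, with an adjusted p of 0.0721 in edgeR's test. Cyp7a1, the rate-limiting hydroxylase, and Cyp8b1, which directs synthesis to cholic acid, had log2 fold changes of 1.41 and 1.39 with adjusted p-values of 0.0210 and 0.0333 in edgeR's test. Cyp2c70, which makes muricholic acids, had -2.75 with an adjusted p of 0.00483. The calls of Cyp7a1 and Cyp8b1 were each lost in 4 of the 6 fits that left out 1 liver, FXR-WT replicate 3 and Y67F-FXR replicate 3 among them for both, with adjusted p-values up to 0.102 and 0.127, and that of Cyp2c70 in none of the 6. Whether the 8 side-chain and conjugation genes differ in their change from the genes of this list was not tested.

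**Figure D5:**
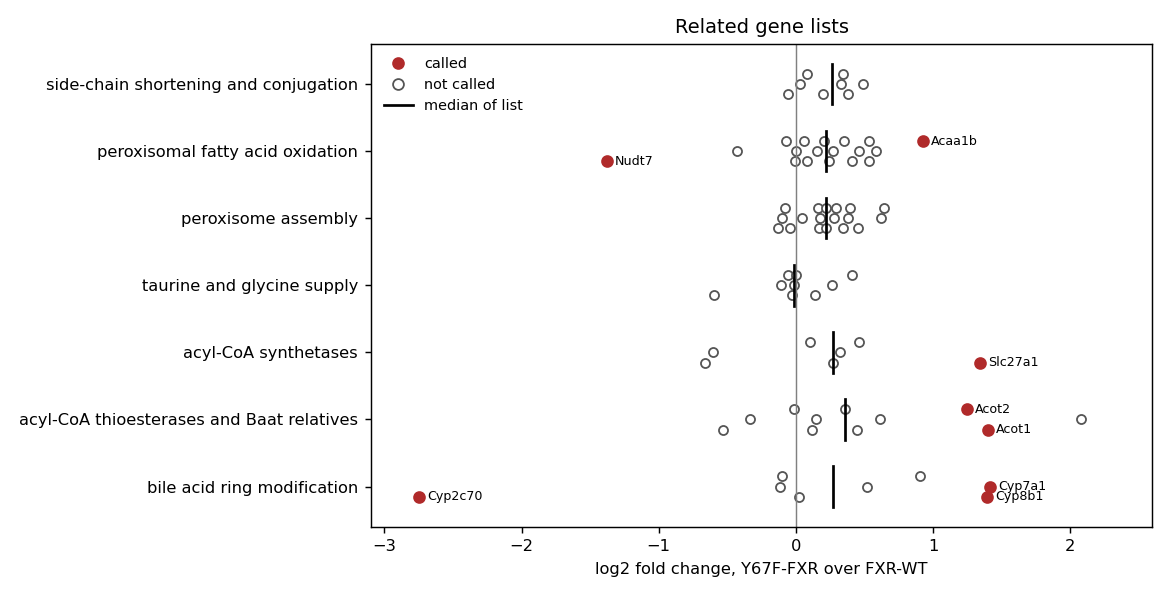
Log2 fold change of Y67F-FXR over FXR-WT for each tested gene of the 8 and of 6 related lists, with called genes filled and named and the median of each list as a vertical bar. The 8 genes lie within -0.06 and 0.49 with none called, while called genes of the other lists lie from -2.75 to 1.41.

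The samples carried the markers of liver. The 8 hepatocyte markers summed to between 112292 and 126446 CPM in FXR-WT and between 108319 and 129878 CPM in Y67F-FXR livers, and Fga, a fibrinogen chain, had the smallest p (log2 fold change -0.39, adjusted p = 0.335, edgeR). In the lists for other liver cells edgeR, with TMM factors and the filter on low counts, called no gene, while DESeq2 and the edgeR fit with length offsets each called 1 stellate cell marker lower, and 1 and 2 Kupffer cell and leukocyte markers lower. Of 9 stellate cell markers 8 were fitted lower, with summed levels of 218 to 236 CPM in FXR-WT and 160 to 217 CPM in Y67F-FXR livers, which do not overlap, and the log2 fold change of Lrat was -1.15 (edgeR adjusted p = 0.0540). Lrat was called with RLE factors (adjusted p = 0.0498, edgeR), with length offsets (0.0189), without a filter (0.0364) and by DESeq2 (0.000104). Kupffer cell and leukocyte markers summed to 184 to 265 and 148 to 374 CPM, cholangiocyte markers to 46.2 to 71.2 and 54.1 to 60.6 CPM, and endothelial markers to 176 to 212 and 181 to 193 CPM. The leading genes of these 3 lists, S100a8, Krt19 and Lyve1, had log2 fold changes of -2.73, -0.80 and -0.89 (adjusted p = 0.0529, 0.420 and 0.210, edgeR). In the lists as a whole, 6 Kupffer cell and leukocyte markers were fitted lower and 5 higher. For cholangiocyte markers these were 1 and 4, and for endothelial markers 3 and 3. S100a8 had 26, 20 and 20 reads in FXR-WT and 5, 3 and 1 in Y67F-FXR livers. In edgeR it was called lower with library totals (adjusted p = 0.0487), without a filter (0.0448) and with length offsets (0.0344). Of 5 erythrocyte markers, 4 were listed at 0 and Alas2, the erythroid enzyme of haem synthesis, was fitted at 0.16 on the log2 scale (edgeR adjusted p = 0.708). Reads on several genes or places were left out of the counts, and whether this made the zeros was not tested. The zeros are therefore no measure of blood in the livers. The part of cell composition in the values of the 8 genes was not tested.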

How the data were processed

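Paired reads of 100 bases came from 6 livers, 3 of them FXR-WT and 3 Y67F-FXR, with 1 library per liver, grouped by the sample labels. The p-values measure the spread between these livers. The authors used Trimmomatic 0.36 for trimming, STAR for alignment and featureCounts 1.4.6-p4 for counting on the mm9 annotation of UCSC, without strand, each read of a pair singly, leaving out reads on several genes or places. The deposited counts were not normalized. A table of the authors' own comparison (fold changes and p-values) was not used.

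The fit used edgeR 4.0.16 under R 4.3.3: filterByExpr, TMM factors, glmQLFit and glmQLFTest over all 12453 genes that passed, with Benjamini-Hochberg adjustment. Standard errors and 95% intervals come from the F statistic. TPM used the files' gene lengths, reads per length being scaled to sum to 1000000 over all genes, without TMM factors. At 19551113 to 22053320 reads a library, precision was set by the spread between livers (common biological coefficient of variation 0.194). Within-group pairs of libraries differed by more than counting noise, with median chi-square per gene from 2.227 to 8.096. Pairs across the groups lay in a similar range, from 2.315 to 9.827. Same-numbered livers did not deviate together, with correlations of -0.517, -0.080 and 0.121. Across the groups, livers of different number had correlations from -0.586 to 0.578, the highest between FXR-WT replicate 3 and Y67F-FXR replicate 1. Alternatives were RLE factors, library totals, DESeq2 1.42.0, other filters, the replicate number as a block, length offsets (loess span 0.3), other call rules and each liver left out.

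Named genes are the 8 genes, Nr1h4, a gene sharing exon bases with them, and, of each list, the tested genes with the smallest unadjusted p (3 per pathway list, 1 per marker list) and every called gene. Cyp27a1 and Ch25h are named in addition because they act on the side chain. The genes and lists were chosen with earlier results of these data known. Coordinates of genes are in mm9, those of promoters in GRCm38.p6 from RefSeq. Figures were drawn with matplotlib 3.10.9.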

Additional observations from a re-analysis of the deposited data

How the results depend on the processing

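None of the 8 genes was called in any of the 13 other fits. Scp2 turned negative with library totals (log2 fold change -0.040), without FXR-WT replicate 1 (-0.082) and without Y67F-FXR replicate 1 (-0.039), with a range of -0.082 to 0.17 over the fits that left out 1 liver, while the other 7 genes kept their sign. The median of the 8 genes lay between 0.14 and 0.28 with 1 liver left out, the lowest without Y67F-FXR replicate 2. Over all genes, 68 higher and 53 lower calls became 215 and 216 with DESeq2, 123 and 124 with length offsets, and 382 and 401 at an unadjusted p with the fold minimum. Without a filter 81 were lower. With 1 liver left out there were 2 to 35 higher and 7 to 33 lower calls, fewest without FXR-WT replicate 3. The replicate block left 2 higher and 6 lower calls and 0 in the acyl-CoA synthetases, thioesterases, ring genes and peroxisomal fatty acid oxidation. By the labels same-numbered livers share a number, and whether they shared anything else is not stated. No liver of the FXR-WT group correlated best with its own number. With 1 liver left out, higher calls ran from 0 to 1 for acyl-CoA synthetases, 0 to 3 for thioesterases, 0 to 1 for ring genes and 0 to 1 for peroxisomal fatty acid oxidation, whose lower calls ran from 0 to 1. Lower calls among acyl-CoA synthetases were 1 with DESeq2 or length offsets and 2 at an unadjusted p. Thioesterases and ring genes each had 3 higher calls with DESeq2, without a filter and with length offsets. Of the marker lists, library totals and no filter each gave 1 lower call among Kupffer cell and leukocyte markers, and RLE factors and no filter 1 among stellate cell markers. At an unadjusted p, thioesterases had 4 higher calls, peroxisome assembly 1 higher, and taurine and glycine supply 1 lower, as with length offsets. The cause of these changes was not tested. Depth did not set a floor for any of the 8 genes, the lowest having 391 reads, but 3 livers a group leave intervals that reach beyond 1.5-fold for 4 of them.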
